A study of Mus musculus with 4 samples.

Results

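The cytosolic ribosomal protein genes were followed through the cells of the mouse carotid artery before and after wire injury. Members were chosen by gene symbol alone. A gene was a member when its symbol began with Rpl or Rps followed by a number, with at most a short ending such as a, x or l, or was Rplp0, Rplp1, Rplp2 or Rpsa. Pseudogenes named with "-ps" and the S6 kinases were left out. The rule gave 83 of the 31053 genes listed, 51 of the large subunit and 32 of the small subunit, and 82 of them had at least 1 UMI (unique molecular identifier, a tag that counts a captured RNA molecule once) in the cells kept. A filter on low counts left 80 members for the tests between cell classes, without Rpl3l, Rpl39l and Rpl10l. It keeps a gene that is well counted in a single class.

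Ribosomal proteins clothe the ribosomal RNAs of the small and the large subunit, which together translate messenger RNA in the cytosol. They are made in nearly equal amounts, assembled with ribosomal RNA in the nucleolus, and their messenger RNAs are among the most abundant of any cell. Most of these messages in mammals begin with a C followed by a run of C and T, the 5′ terminal oligopyrimidine tract, through which growth signals of the mTOR pathway control their translation. A few members have a paralogue, a sister gene whose product can take the same place in the ribosome, such as Rpl22l1 for Rpl22 and Rps27l for Rps27.

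Carotid arteries of male C57BL/6 mice, 11 weeks old at injury, were digested to single cells, with 1 library from uninjured vessels (day 0) and 1 each from days 3, 7 and 14 after a wire had been passed through the vessel. Each library pooled the vessels of several mice, thrombosed vessels were removed and dead cells were depleted, so the mice cannot be told apart and the injured libraries hold only vessels without a clot. A day is therefore a single library: values of different days were compared by size only, and their intervals (95%, exact) cover counting error alone. The libraries held 333 to 3001 barcodes and 2672722 to 27973418 UMIs, and 5405 cells were kept, with medians of 5458 to 10764 UMIs per cell.

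Libraries were not fully separate. In all, 217 cell barcodes occurred in more than 1 library, 152 of them in days 0 and 3, 64 in days 7 and 14 and 1 in days 3 and 7. The copies differed in depth by a nearly constant factor, with a median of 21.5 where day 0 held the deeper copy and day 3 the shallower one (104 barcodes), 109 in the opposite direction (48 barcodes) and 89.6 between days 7 and 14 (62 barcodes). The ribosomal share of the shallower copy followed that of the deeper one, with a Spearman correlation over barcodes of 0.917 to 0.958. The shallower copy was left out. Values that turn on these barcodes are also given without either copy, and some of them with all copies. Cells were clustered without any ribosomal protein gene among the variable genes or in the scaling total, and clusters were named by resemblance to marker genes, which left 817 cells (15.1%) unnamed. Removed barcodes, which failed the limits on genes or mitochondrial UMIs, had a ribosomal share of 0.790% to 3.81%.

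The starts of 8 members to which the results return are given first, because many members share a run of C and T near their first transcribed base. RefSeq (GRCm38.p6) held promoters of 63 of the 83 members. Each line below covers 10 bases before and 20 bases from the annotated first base of the transcript on, read 5′ to 3′ on the strand of the gene. Capitals mark the longest run of at least 5 C or T that reaches the bases around the start. Lines without capitals have no such run. The windows, in the order of the lines, were chr3:90213629-90213658 (minus strand), chr9:66946076-66946105 (plus), chr4:152325716-152325745 (plus), chr3:28805498-28805527 (plus), chr7:45128726-45128755 (minus), chr14:24490668-24490697 (plus), chr17:33824543-33824572 (minus) and chr10:128549149-128549178 (minus).
Rps27: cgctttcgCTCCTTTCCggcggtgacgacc
Rps27l: cctccccgccgCCTCTatcccggaagttgc
Rpl22: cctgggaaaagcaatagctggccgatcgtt
Rpl22l1: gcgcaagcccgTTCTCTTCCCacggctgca
Rpl13a: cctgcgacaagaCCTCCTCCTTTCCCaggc
Rps24: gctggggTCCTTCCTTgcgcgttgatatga
Rps28: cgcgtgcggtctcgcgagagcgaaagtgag
Rpl41: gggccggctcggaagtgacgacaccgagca

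A run of at least 8 C or T within 20 bases of an annotated start, on the strand of the gene, was found in 30 of the 63 members (47.6%) and in 18.4% of 27025 gene symbols. The mirror search for at least 8 A or G found 7.94% of the members and 20.2% of all symbols. The stricter pattern of a C followed by at least 4 C or T, beginning within 2 bases of the start, was present in 33.3% of members and 10.6% of symbols. CCGGAAG, searched on both strands of the whole 300 bases, occurred in 41.3% against 9.93%, and TATAAA, searched likewise, in 11.1% against 15.7%. Rps24, Rps27l and Rpl22 have more than 1 annotated start, of which the first listed is shown. The other listed start of each has no run of the kind marked. These matches describe letters near annotated starts and say nothing of a factor at them, and the 3′ libraries did not read these bases.

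Counts of the members were unequal although their proteins are made in near equal number. The highest was Rps29, a small zinc-binding protein of the small subunit, with 301429 UMIs or 3.12% of all ribosomal protein UMIs of the kept cells. It was followed by Rpl41 (2.94%), the smallest ribosomal protein, by Rps24 (2.30%) and by Rplp1 (2.22%), which belongs to the stalk of the large subunit that recruits translation factors. Among the others of the first 10 were Rpl39, Rpl37a, Rpl13, Rpl23 and Rps27, with 2.20% to 1.90%. UMIs of a 3′ library count molecules without regard to length, so these shares need no division by gene length, but they still depend on how well each 3′ end was captured and assigned. At the low end stood Rps27l (0.228%), Rpl13a (0.195%) and Rpl7l1 (0.0368%), a relative of Rpl7. Rpl3l had 70 UMIs, Rpl39l had 57 and Rpl10l had none.

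The share of all UMIs that came from the members differed more between cell classes than between days. B cell-like cells had the highest share in each injured library, 31.5%, 29.0% and 28.7% on days 3, 7 and 14, on 10, 13 and 21 cells. T cell-like cells came next with 26.3%, 23.6%, 27.0% and 25.8% on days 0, 3, 7 and 14. NK cell-like cells had 17.4%, 23.6% and 20.6% after injury, so that their range ended where that of T cell-like cells began. Dendritic-like cells varied least in these sums, with 20.0%, 20.7% and 20.2%. As a mean over cells, however, their day 14 had 0.844 times the share of day 3.

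In the middle of the order the classes overlapped. Monocyte/macrophage-like cells had 14.1%, 17.04% and 16.7% on days 3, 7 and 14, and endothelial-like cells 17.02%, 14.1% and 15.3%. The place of endothelial-like cells held for the sums only. Their medians were 1112.5, 1706 and 909.5 UMIs, and their means over cells were 22.0%, 13.0% and 19.0%. On days 3 and 14 these means lay above those of NK cell-like cells, 14.9% and 16.1%. Fibroblast-like cells had 13.5%, 18.6%, 12.2% and 12.7% on days 0, 3, 7 and 14, so their place moved from above to below the monocyte/macrophage-like cells between days 3 and 7. Smooth muscle-like cells lay below them at each time, at 7.35%, 11.7%, 7.90% and 9.64%. Neutrophil-like cells were lowest of all in both libraries in which they reached 10 cells, with 4.46% on day 3 and 6.14% on day 7. Erythroid-like cells had 12.1%, 13.5% and 22.4% on days 3, 7 and 14, on 12, 24 and 17 cells. Their span over days was the widest of any class, and they were not followed further. The small subunit took 42.9% to 49.0% of ribosomal protein UMIs in every class and day named here, highest in B cell-like cells.

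**Figure D1:**
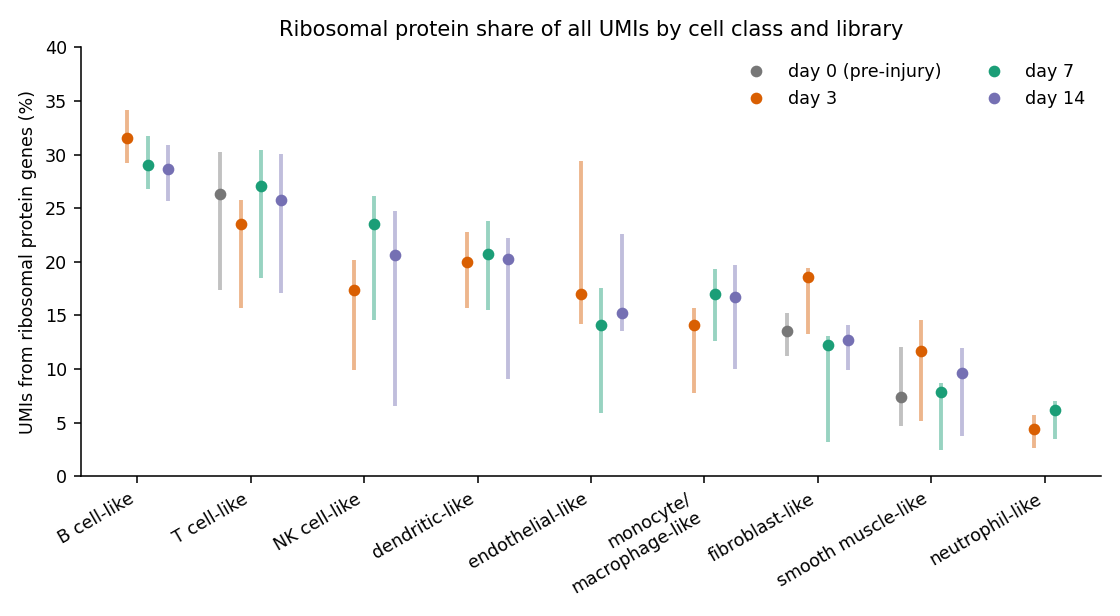
Points give the percentage of all UMIs of a class that came from the ribosomal protein genes (vertical axis), summed over the cells of each library, and bars run from the lower to the upper quartile of its cells. B cell-like and T cell-like cells sit at 23.6% to 31.5% and neutrophil-like cells at 4.46% to 6.14%, while fibroblast-like, endothelial-like and monocyte/macrophage-like cells share the range from 12.2% to 18.6%.

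The share also followed the depth of a cell, to a degree that differed between classes. A least-squares line within each class, with a level for each day, gave 8.02 percentage points more per doubling of UMIs in B cell-like cells, 7.82 in NK cell-like cells and 7.36 in T cell-like cells. The slope was 3.32 in dendritic-like, 2.50 in monocyte/macrophage-like, 1.40 in fibroblast-like and 0.640 in neutrophil-like cells, and -0.152 in smooth muscle-like cells. In endothelial-like cells it was -0.210. In smooth muscle-like cells the slopes of single days ran from -1.42 on day 0 to 0.963 on day 14. Part of such a slope is built in, since the members are themselves counted in the total. With the UMIs of the other genes alone as depth, the Spearman correlation over the 364 T cell-like cells of day 7 was 0.436 in place of 0.599, and over the 737 monocyte/macrophage-like cells of that day 0.361 in place of 0.439. Over the same cells the share was lower where the mitochondrial share was higher, with correlations of -0.317 and -0.298. These values share one library each and describe it. Read from the line at 5000 UMIs, T cell-like cells had 20.7% to 23.9% over the 4 libraries, dendritic-like cells 14.2% to 15.9% and monocyte/macrophage-like cells 10.7% to 14.0%. Endothelial-like cells had 21.6%, 12.9% and 18.6% on that line on days 3, 7 and 14. On day 3 this was above the T cell-like value (20.7%), and on day 14 above the dendritic-like one (15.9%).

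In fibroblast-like cells the summed share was higher on day 3 than before injury. It was 13.5% on day 0 (95% interval 13.5% to 13.6%, 233 cells) and 18.6% on day 3 (18.5% to 18.6%, 103 cells), a ratio of 1.37. The cells of day 3 were also deeper, with a median of 33731 UMIs against 8126. Compared only within bins of equal UMIs per cell, the ratio was 0.897, below 1. Only 5 bins were filled on both days. The 55 cells of day 3 above 32000 UMIs, with a mean share of 18.8%, had no such bin on day 0. Day 3 lay above day 0 at 4000 to 8000 (14.0% against 13.6%) and 16000 to 32000 UMIs (14.6% against 13.7%). In the other shared bins it lay below, on 6, 12 and 7 cells of day 3. A line with one slope for the class put both days at nearly the same share at 5000 UMIs, 12.7% on day 0 and 12.8% on day 3, although the slopes of these days taken alone differed, at 0.463 and 1.90 points per doubling. Different clusters held the class on the 2 days: 203 of the 233 cells of day 0 lay in a cluster led by Rbp4 and Fmo2, and 43 and 42 of the 103 cells of day 3 lay in clusters led by Saa3 and by Eln and Tnfrsf11b. The Saa3 cluster had a share of 20.0% with a median of 63138 UMIs, and without it the ratio was 1.14. Without either copy of a shared barcode it was 1.29.

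On days 7 and 14 the share of fibroblast-like cells was 0.905 and 0.936 times that of day 0 in the sums, and 0.463 and 0.714 times within bins of depth. These bins left out the cells above 32000 UMIs, 71 on day 7 and 26 on day 14. The line at 5000 UMIs gave 7.13% and 9.69%. The mean over cells gave 0.707 and 0.885. Most of the cells of day 7 lay in the Eln and Tnfrsf11b cluster (105 of 184) and most of those of day 14 in that cluster (115 of 509) and in one led by C1qtnf3 and Angptl1 (240 of 509). Within the cluster led by Rbp4 and Fmo2, the only one with at least 10 cells in each library, the share was 12.8%, 14.5%, 12.8% and 12.3% on days 0, 3, 7 and 14, with 203, 17, 16 and 108 cells. Within the Eln and Tnfrsf11b cluster it was 15.5%, 11.9% and 11.1% on days 3, 7 and 14. Day 3 was thus the highest day in both clusters, by less in the first than in the second.

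Among single members, 75 of the 80 with at least 100 UMIs on both days had a higher CPM value (UMIs per 1000000 UMIs of the class) in fibroblast-like cells on day 3 than on day 0, where 37.8% of all genes counted that deeply did. From day 3 to day 14, 79 of 80 were lower, against 53.6% of genes. The median member was 1.38 times higher in the first comparison and 0.691 times as high in the second, and the medians of the other genes were 0.877 and 0.975. From day 3 to day 7 the same number, 79 of 80, were lower (52.7% of genes). Against day 0 the members were divided, with 51 of 80 lower on day 7 (65.0% of genes) and 58 of 80 on day 14 (67.0%).

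**Figure D2:**
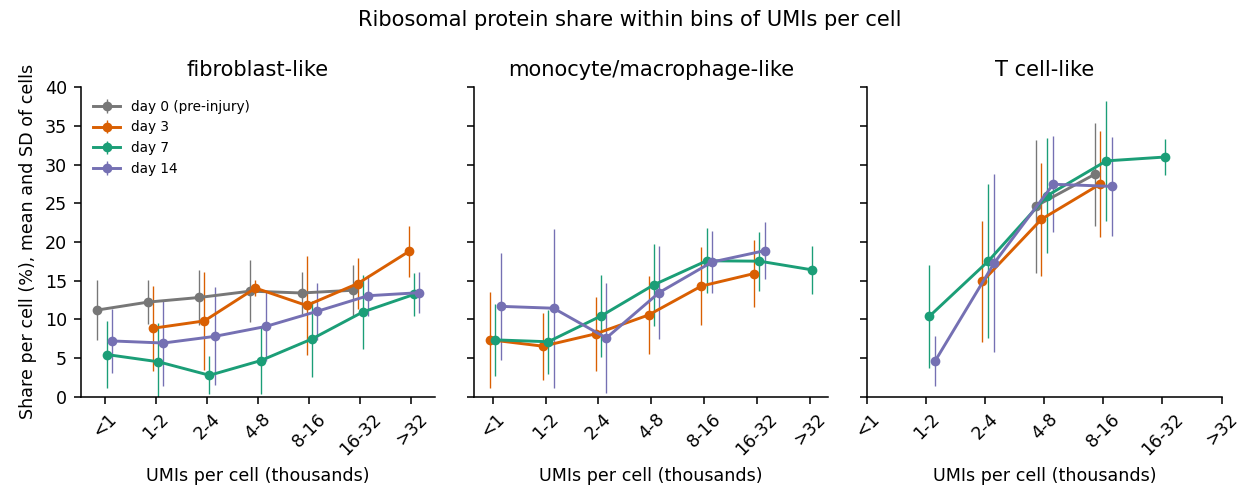
Mean ribosomal protein share per cell (vertical axis, with the standard deviation over cells) in bins of UMIs per cell (horizontal axis, in units of 1000, bins of at least 5 cells) for 3 classes and each library. T cell-like cells climb steeply with depth on each day, and fibroblast-like cells of day 0 stay nearly level. Fibroblast-like cells of days 7 and 14 lie below those of day 0 in each bin filled on day 0, by least in the deepest of these bins.

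In monocyte/macrophage-like cells the share was lower on day 3 than later. It was 14.1% on day 3 (477 cells, median 8052 UMIs), 17.04% on day 7 (737 cells, 9996 UMIs) and 16.7% on day 14 (152 cells, 8426.5 UMIs). The ratios to day 3 were 1.21 and 1.18, and within bins of depth 1.19 and 1.28. The mitochondrial share was higher on day 3 than later, at 4.95%, 4.09% and 2.85%. Leaving those UMIs out of the total gave ratios of 1.19 and 1.16, and keeping only cells with at most 10% of them gave 1.17 and 1.16.

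Here too the clusters changed with the day. A cluster led by Pf4 held 246 of the 477 cells of day 3, clusters led by Plac8 and Chil3 and by Ms4a7 and C1qa held 361 and 258 of the 737 cells of day 7, and the latter held 118 of the 152 cells of day 14. Within the Ms4a7 and C1qa cluster the share was 14.5%, 17.2% and 16.5% on days 3, 7 and 14. Within the Pf4 cluster it was 13.4% on day 3 and 15.2% on day 7. The Plac8 and Chil3 cluster had 18.3%, 17.5% and 21.8%, the last on 15 cells, and so did not have its lowest value on day 3. Nor did the cluster led by Acp5 and Ocstamp, with 14.3%, 15.3% and 9.36% on 64, 40 and 19 cells. Of the 80 members counted deeply enough, 72 were higher on day 7 than on day 3, against 32.8% of genes, and 75 of 79 were higher on day 14, against 45.9%.

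T cell-like cells had 1.15 times the share of day 3 on day 7 and 1.09 times on day 14, and 1.13 and 1.10 times within bins of depth. The clusters changed with the day here as well. The one led by Cd8b1 and Trac held 53 of the 65 cells of day 3, 213 of the 364 of day 7 and 39 of the 93 of day 14, with shares of 24.7%, 25.6% and 25.8%, and the one led by Ikzf2 and Xcl1 held 2, 94 and 20. The cluster led by Trdc and Cxcr6 had 18.4%, 21.8% and 24.5% on 10, 57 and 34 cells. With each library clustered on its own the second ratio was 0.943, but unlike cells were then compared, a cluster of 65 cells led by Trbc2 and Cd3d on day 3 and 1 of 27 cells led by Trdc and Cd163l1 on day 14. Of 78 members, 72 were higher on day 7 than on day 3, against 46.1% of genes, and 65 on day 14, against 50.6%. The corresponding ratios of day 7 to day 3 were 1.35 in NK cell-like cells (1.18 within bins of depth), 1.38 in neutrophil-like cells (1.46), 1.04 in dendritic-like cells (1.01, with 61 of 80 members higher against 45.2% of genes) and 0.828 in endothelial-like cells (0.603). In smooth muscle-like cells day 14 had 0.823 times the share of day 3, 0.536 times within bins of depth and 0.979 times without either copy of a shared barcode and 0.743 times with all copies, and 70 of 79 members were lower, against 45.5% of genes. A cluster with a median of 1423 UMIs and a share of 24.6% on day 3, led by Tagln and Hspb7, held 32 of the 100 cells of day 3 and 5 of the 76 of day 14, and within the cluster led by Myh11 and Itga8 the shares of these days were 11.3% and 9.63%. Day 0 had only 11 smooth muscle-like cells, and with all copies kept and the cells clustered anew there were 61, so ratios to that day were 1.59 and 1.21 for day 3 under these choices, and 2.15 without either copy, on 7 cells of day 0.

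Cell classes were then compared gene by gene over the libraries of days 3, 7 and 14, with UMIs summed per class and library, the library as a block and edgeR's quasi-likelihood test. T cell-like cells had higher levels than monocyte/macrophage-like cells in 20 of the 80 members tested and lower levels in 2, by an adjusted p under 0.05. Of all 12253 genes tested, 16.0% were higher and 21.3% lower, and of those that were no variable genes of the clustering 15.7% and 21.3%. The median log2 fold change of the members was 0.45, against -0.03 over all genes tested. In 66 members each of the 3 T cell-like values lay above each of the 3 monocyte/macrophage-like values, which held for 27.3% of all genes, and in 2 members each lay below (19.8%).

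Rpl13a, a large subunit protein that is also known to leave the ribosome as part of a translational silencing complex in interferon-treated monocytes, had 782, 783 and 603 CPM in T cell-like cells on days 3, 7 and 14 and 237, 274 and 257 in monocyte/macrophage-like cells. Its log2 fold change was 1.23 ± 0.22 (SE), with an edgeR adjusted p of 0.000341. Rps27, a zinc-finger protein of the small subunit, had 7749, 7214 and 8457 against 2535, 3215 and 3288 CPM. Its log2 fold change was 1.12 ± 0.22, with an edgeR adjusted p of 0.000726. The groups did not overlap in either gene, and the T cell-like values were higher in all 3 libraries.

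The other members among the 6 highest were Rpl12, at the base of the stalk (log2 fold change 1.10), the paralogue Rpl22l1 (1.05), Rps15a (1.01) and Rpsa, also known as the laminin receptor precursor (0.86), with adjusted p values of 0.00208 to 0.0157 in edgeR. The remaining 14 had log2 fold changes of 0.62 to 0.82, among them Rps24 (0.73), Rps7 (0.82) and Rpl5 (0.64), which with the 5S RNA binds the p53 regulator Mdm2. The 2 lower members were the paralogues Rps27l (-1.72) and Rpl7l1 (-0.74), described below. Leaving out the library of day 3, 7 or 14 left 14, 2 and 3 members higher, with 2 libraries each. Rpl13a, Rps27 and Rps27l kept their direction and an adjusted p under 0.05 in all 12 alternatives. The median of all genes moved to 0.20 with total counts and to 0.39 with the total of the other genes as library size, with the median of the members at 0.70 and 0.87 and 53 and 60 members higher. Fewer members were higher with each library clustered on its own, without the filter on low counts, without either copy and with the sums of day 0. Those counts are given below with the dependence on processing.

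Fibroblast-like cells, in contrast, had lower levels than monocyte/macrophage-like cells in 12 members and a higher level in 1, where 29.5% of all genes tested were lower and 29.8% higher (29.7% and 27.8% without the variable genes). Rps29 had 4366, 2869 and 4060 CPM in fibroblast-like cells on days 3, 7 and 14, against 6477, 6318 and 7873 in monocyte/macrophage-like cells, without overlap. Its log2 fold change was -0.996 ± 0.212, with an edgeR adjusted p of 0.00074. Rps9 (-0.88), Rps25 (-0.83), which is known for a role in internal initiation, the stalk protein Rplp2 (-0.75), Rpl35a (-0.68) and Rps14 (-0.64) followed, with adjusted p values of 0.00368 to 0.0205 in edgeR. The median member stood at -0.27, against -0.05 over all genes. Values did not overlap in 8 members that were lower, against 27.7% of all genes, and in 1 that was higher, against 33.4%. Without the library of day 7, and likewise without that of day 14, none of the lower calls was left, and without day 3 there were 41.

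Rpl22l1 was the member higher in fibroblast-like cells. It had 1303, 634 and 632 CPM there and 331, 362 and 358 in monocyte/macrophage-like cells. The log2 fold change was 1.11 ± 0.27, with an edgeR adjusted p of 0.00214, and the call held in all 12 alternatives. The day 3 value stood apart from the other fibroblast-like values, which still lay above all monocyte/macrophage-like ones.

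Between dendritic-like and monocyte/macrophage-like cells no member passed an adjusted p of 0.05 in edgeR. At an unadjusted p under 0.05 there were 5 members, and DESeq2 called 2, both higher, while edgeR called 5.61% of all genes higher and 8.59% lower (5.23% and 8.14% without the variable genes). Each dendritic-like value lay above each monocyte/macrophage-like value in 62 of the 80 members, against 12.5% of all genes, and below in none, against 14.4%. The median log2 fold change was 0.30 (all genes, -0.05). The largest was that of Rpsa, with 3486, 3578 and 3709 CPM in dendritic-like and 1944, 2235 and 2042 in monocyte/macrophage-like cells, a log2 fold change of 0.73 ± 0.26 (edgeR adjusted p = 0.0763).

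Smooth muscle-like cells had lower levels than fibroblast-like cells in 41 of the 80 members and higher levels in none, while edgeR called 15.9% of all genes lower and 12.4% higher (15.1% and 11.1% without the variable genes). The median log2 fold change of the members was -0.66, against -0.09 over all genes, and 42 members lay lower without overlap, against 17.3% of genes, and none higher, against 19.1%. Rpl22l1 was again at the end of the order, with 608, 339 and 322 CPM in smooth muscle-like cells on days 3, 7 and 14 and the fibroblast-like values given above, a log2 fold change of -1.14 ± 0.27 (edgeR adjusted p = 0.00432). Rps20, Rps28, the stalk protein Rplp0, Rpl39 of the exit tunnel and Rps12 had log2 fold changes of -1.05 to -0.99. The mitochondrial share differed as well. It was 6.48%, 9.06% and 5.74% on days 3, 7 and 14 in the smooth muscle-like cluster led by Myh11 and Itga8. In the fibroblast-like clusters with at least 10 cells it was 2.43% to 4.64% on these days. Its part in this contrast was not tested.

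The calls of this contrast moved with several choices. Without the library of day 3, 7 or 14 there were 30, 1 and 0 lower calls. With each library clustered on its own there were none, although 13 members had an unadjusted p under 0.05, and the median member was at -0.37. Unlike cells were then compared. On day 7 the smooth muscle-like sum also held a cluster of 27 cells led by Lcn2 and Mt2, with a median of 50339 UMIs. The fibroblast-like sum of that day held a cluster of 355 cells with a median of 747 UMIs. With all copies of shared barcodes kept there were 6 lower calls, and without either copy 35. Keeping the copies also meant clustering the cells anew. Smooth muscle-like cells then numbered 175, 133 and 140 on days 3, 7 and 14 in place of 100, 68 and 76, of which 4, 0 and 37 were added copies, so copies and clustering cannot be told apart in that count.

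**Figure D3:**
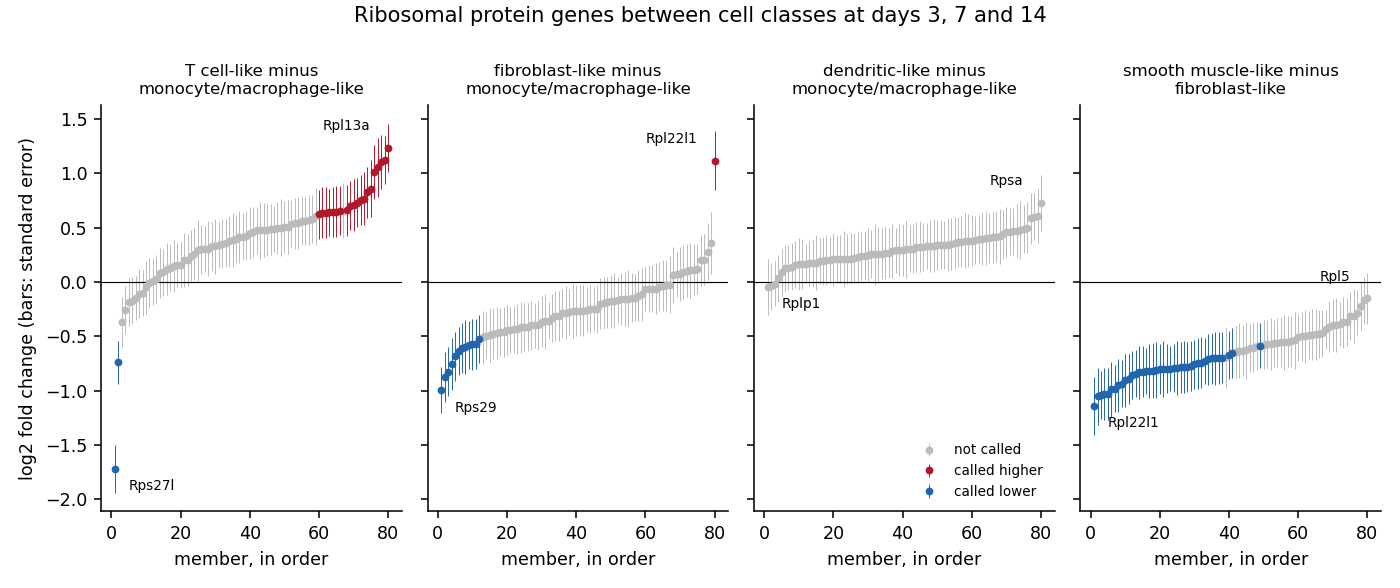
Log2 fold change of each of the 80 members tested (vertical axis, bars give the standard error of the edgeR fit), ordered from lowest to highest within each of 4 class contrasts. Red and blue mark members with an adjusted p under 0.05: 20 higher and 2 lower in T cell-like cells, 1 higher and 12 lower in fibroblast-like cells, none in dendritic-like cells and 41 lower in smooth muscle-like cells.

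The composition of the ribosomal protein pool was examined next, by taking the total of ribosomal protein UMIs as library size in a fit added after the first results had been seen. A value here is the share of a member in the pool, so that a general rise or fall of all members leaves it as it is. In T cell-like against monocyte/macrophage-like cells, 9 members took a higher share and 15 a lower share, where 7.26% and 28.7% of all genes tested did so on this scale. Rpl10, a late-joining protein of the large subunit, made up 0.688%, 0.912% and 0.967% of the pool in T cell-like cells on days 3, 7 and 14 and 1.23%, 1.57% and 1.65% in monocyte/macrophage-like cells. Its log2 fold change was -0.80 ± 0.14 (edgeR adjusted p = 0.000235), while its level relative to all genes did not pass the test. Rps29, with 3.19%, 2.59% and 3.22% against 4.58%, 3.71% and 4.70%, had -0.53, and Rpl31, Rps25, Rpl7a and Rps9 had -0.63 to -0.53. Without the library of day 3, 7 or 14 there were 5, 2 and 4 higher and 10, 3 and 5 lower shares. Among the 9 higher shares were Rpl13a (0.81), Rps27 (0.71), Rpl12 (0.68) and Rps15a (0.59).

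In fibroblast-like against monocyte/macrophage-like cells, 9 members took a higher and 6 a lower share of the pool (all genes, 30.4% and 18.1%), and without the library of day 3, 7 or 14 there were 7, 2 and 5 higher and 4, 1 and 3 lower ones. Rpl22l1 had the highest value, 1.37 ± 0.20 (edgeR adjusted p = 9.86e-06), followed by Rps2 (0.62), Rps20 (0.53), Rpl41 (0.47) and Rplp0 (0.46). Rpl41 had 4.22%, 3.52% and 3.15% of the pool in fibroblast-like cells and 3.07%, 2.46% and 2.34% in monocyte/macrophage-like cells on days 3, 7 and 14, and the ranges of the 2 classes did not overlap. Rps29 (-0.72) and Rps9 (-0.61) had the lowest values. In smooth muscle-like against fibroblast-like cells 3 members took a higher share of the pool, Rpl5, Rps15 and Rps25, none of which was among the 41 lower ones, and 1 took a lower share, Rpl39, against 26.9% and 5.44% of all genes. Without the library of day 3 there was 1 higher share and no lower one, and without that of day 7 or of day 14, or with each library clustered on its own, there was none. Dendritic-like and monocyte/macrophage-like cells did not differ in the share of any member by this test, in which all genes gave 2.79% and 9.91%.

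**Figure D4:**
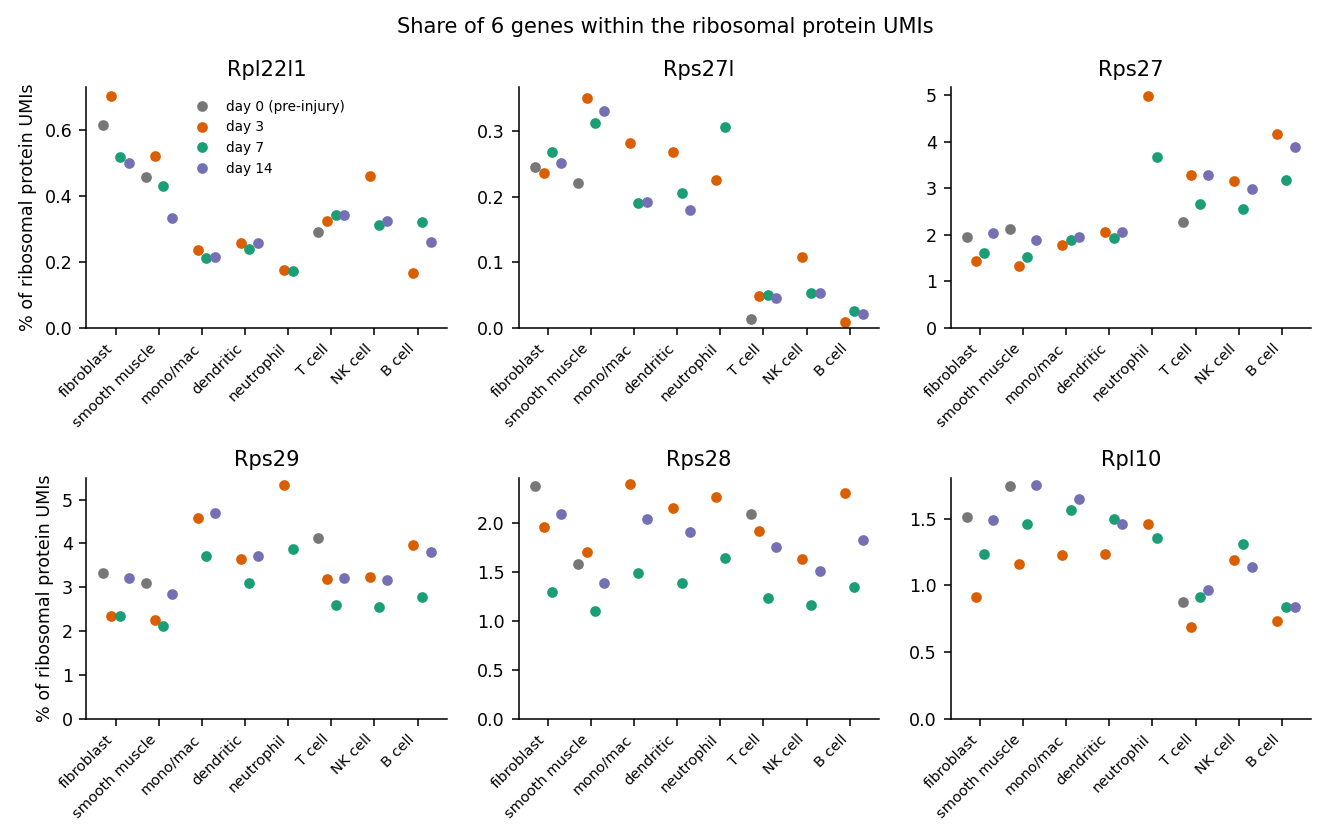
Share of 6 members in the ribosomal protein UMIs (vertical axes, percent, each from 0) for 8 cell classes, with 1 point per library. Endothelial-like cells are not shown. Among the classes shown, Rpl22l1 is highest in fibroblast-like cells and Rps27l is low in T, NK and B cell-like cells. Rps27 is high in T, NK, B and neutrophil-like cells, and the day 7 point of Rps28 is the lowest of each class.

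The paralogues Rps27l and Rpl22l1 stood at an end of the order of members in some contrasts, but not between dendritic-like and monocyte/macrophage-like cells. Rps27l, a p53-inducible sister of Rps27, had 400, 326 and 323 CPM in monocyte/macrophage-like cells on days 3, 7 and 14 and 114, 135 and 116 in T cell-like cells. The log2 fold change was -1.72 ± 0.22 (edgeR adjusted p = 1.24e-05), opposite in sign to that of Rps27. Its share of the pool was 0.0482%, 0.05003% and 0.0452% in T cell-like cells on days 3, 7 and 14 and 0.00881% to 0.0263% in B cell-like cells, the latter on 1 to 5 UMIs a library. In fibroblast-like, smooth muscle-like and dendritic-like cells it was 0.180% to 0.350% on all days. Rps27l did not pass the test between fibroblast-like and monocyte/macrophage-like cells (log2 fold change -0.07, and above 0 in 7 of 12 alternatives).

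Rpl22l1 divided the classes along another line. Its share of the pool was 0.613%, 0.701%, 0.518% and 0.499% in fibroblast-like cells on days 0, 3, 7 and 14 and 0.334% to 0.519% in smooth muscle-like cells, but 0.213% to 0.234% in monocyte/macrophage-like cells and 0.173% to 0.177% in neutrophil-like cells. T cell-like cells had 0.290% to 0.343%, above the range of monocyte/macrophage-like cells and overlapping that of smooth muscle-like cells. Its sister Rpl22, by contrast, had 0.714% to 0.883% in each class and day with at least 10 cells. Rpl7l1 had 71.3, 59.6 and 49.8 CPM in monocyte/macrophage-like cells and 42.3, 42.5 and 41.6 in T cell-like cells, a log2 fold change of -0.74 ± 0.20 (edgeR adjusted p = 0.00806). It lost the call in 3 of 12 alternatives. Rpl3l, known from heart and skeletal muscle, had 23 of its 70 UMIs in the neutrophil-like cells of day 3 and 5 in those of day 7, and the others mostly in dendritic-like and monocyte/macrophage-like cells. Rpl39l, known from the testis, had 57 UMIs spread over several classes.

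Rps28 and Rpl17 changed their share of the pool with the library. Rps28 made up 1.96%, 1.29% and 2.09% of it in fibroblast-like cells on days 3, 7 and 14, and 2.37% on day 0. In monocyte/macrophage-like cells it made up 2.39%, 1.49% and 2.03%, and in T cell-like cells 1.91%, 1.23% and 1.75%. The classes come from the same libraries, so day 7 and the library of day 7 cannot be told apart, and the agreement between classes is no replication. Rpl17 had the opposite course, with 0.670%, 0.817% and 0.680% in fibroblast-like and 0.821%, 1.12% and 0.890% in T cell-like cells. Rps28 and Rpl17 were picked after their values had been seen.

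By the rule for naming members between days, Rpl29 (1.36) and Rps26 (1.23) had the highest ratios of day 14 to day 0 in fibroblast-like cells as shares of the pool, ahead of Rpl12 (1.23), Rps15a (1.22) and Rpl17 (1.19). Rpl29 had 0.432% of the pool on day 0 and 0.587% on day 14, with a 95% counting interval of 1.28 to 1.44 for the ratio. The lowest ratios were those of Rpl13a (0.595), Rpsa (0.768), Rpl6 (0.803), Rpl14 (0.812) and Rpl22l1 (0.814). The value of Rpl13a rested on shared barcodes. Among fibroblast-like cells of day 0, the 94 whose barcode also occurred in another library had a median of 16582 UMIs and 0.292% of their pool in Rpl13a, and the other 139 had 3839 UMIs and 0.150%. Without either copy the ratio of Rpl13a was 1.00.

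In monocyte/macrophage-like cells the highest ratios of day 14 to day 3 were those of Rpl10 (1.34), Rps21 (1.34), Rpl3 (1.26), Rps7 (1.255) and Rpl30 (1.23). Rpl10 went from 1.23% to 1.65% of the pool. The lowest were Rps27l (0.682), Rpl41 (0.762), Rpl23a (0.803), Rpl7a (0.814) and Rpl37a (0.845). Rps27l went from 0.283% to 0.193%, on 1857 and 428 UMIs. Most members kept nearly the same share: 75 of the 79 counted deeply enough stayed within a factor of 1.3, as did 77 of 80 in fibroblast-like cells between days 0 and 14. On days 3 and 7, 63 and 62 of 80 stayed within it relative to day 0.

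Other genes of the translation machinery were counted from lists chosen with earlier results known. The shares of all genes tested to set beside these counts are 16.0% higher and 21.3% lower in T cell-like cells, 29.8% and 29.5% in fibroblast-like cells, 5.61% and 8.59% in dendritic-like cells (each against monocyte/macrophage-like cells) and 12.4% and 15.9% in smooth muscle-like against fibroblast-like cells. Of 5 ribosome components outside the rule, 2 were higher in T cell-like than in monocyte/macrophage-like cells, 4 were lower in fibroblast-like than in monocyte/macrophage-like cells and 3 were lower in smooth muscle-like than in fibroblast-like cells. Rps27rt (log2 fold change 1.15) was higher in T cell-like cells, and Fau (-1.27), Rps27rt (-0.81) and Rack1 (-0.67) were lower in fibroblast-like cells. Fau encodes a ribosomal protein fused to a ubiquitin-like domain. In smooth muscle-like against fibroblast-like cells Fau (-0.76) and Rps27rt (-0.73) were lower, as most members were. None of the 5 passed the edgeR test in dendritic-like cells.

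Ribosome biogenesis genes, which make and process ribosomal RNA, were higher in 6 of 30 (20.0%) and lower in none in T cell-like cells, with Dkc1 (0.90) and Polr1c (0.77) at the top. In fibroblast-like cells 11 of 30 (36.7%) were lower and none higher, with Ddx21 (-1.34) and Rrp12 (-1.22) at the bottom. Smooth muscle-like against fibroblast-like cells had 3 (10.0%) higher, Rrp12 (1.79), Bop1 (1.11) and Ncl (0.62), and 1 lower, Nip7 (-0.77). In dendritic-like cells Nop16 (0.84) and Fbl (0.67) were higher. The median of this list was 0.39 in the first contrast and -0.31, -0.02 and 0.15 in the others.

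Of 8 genes listed as elongation factors, none passed the edgeR test in T cell-like or dendritic-like cells. Tpt1, which is on that list, encodes the translationally controlled tumour protein and is no elongation factor itself. Eef1e1 (-0.96) and Tpt1 (-0.50) were lower in fibroblast-like than in monocyte/macrophage-like cells, and Tpt1 (-0.86) and Eef1b2 (-0.84) in smooth muscle-like than in fibroblast-like cells. Of 28 initiation factors, 2 (7.14%) were higher and 4 (14.3%) lower in T cell-like cells, led by Eif3e (0.74) and by Eif4e (-1.11), which binds the cap of messenger RNA. In fibroblast-like cells Eif4g1 (0.72) was higher and 6 (21.4%) were lower, Eif4e (-1.24) and Eif4a1 (-1.24) first. In dendritic-like cells Eif4e (-0.68) alone was lower, and in smooth muscle-like cells Eif4g2 (0.82) and Eif1ax (0.64) were higher and Eif3f (-0.81) lower.

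Mitochondrial ribosomal proteins, which build the separate ribosome of that organelle, were counted likewise. In T cell-like cells 6 of 77 (7.79%) were higher and 13 (16.9%) lower, with Mrps6 (0.95) and Mrps5 (0.91) at one end and Mrpl27 (-1.20) and Mrpl54 (-1.04) at the other. In fibroblast-like cells 9 (11.7%) were higher and 4 (5.19%) lower, with Mrps28 (0.77), Mrpl10 (0.69), Mrps18c (-0.97) and Mrpl1 (-0.94) at the ends. Dendritic-like cells had 2 higher, Mrps6 (0.99) and Mrpl38 (0.74), and smooth muscle-like cells 1 higher, Mrps6 (0.85), and 10 (13.0%) lower, Mrps33 (-0.95) first. Among 15 genes of translation and growth control, T cell-like cells had none higher and 3 (20.0%) lower, including Eif4ebp1 (-2.73), which holds back Eif4e, and Eif2ak2 (-1.42). Fibroblast-like cells had Eif2ak3 (1.02) higher and 4 lower, with Mdm2 (-1.60) and Rptor (-0.79) lowest. Dendritic-like cells had Mdm2 (-1.08) and Eif4ebp1 (-0.71) lower, and smooth muscle-like cells Eif4ebp2 (0.52) higher and 3 lower, with Eif2ak3 (-1.38) and Eif2ak2 (-1.23) first.

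Some of these counts may be affected by near-identical copies. Rps27rt, a retrocopy of Rps27, had 10869 UMIs over the kept cells and Rpl10-ps3 had 5154, beside 183450 of Rps27, so the values of Rps27 and Rpl10 are uncertain. Rpl9, Rpl36a and Rpl13a also have listed copies, with 711, 36078 and 21 UMIs for Rpl9-ps6, Rpl36al and Rpl13a-ps1. The study's methods name default Cell Ranger settings, under which a read that fits several genes equally well is counted for none, so such reads are missing from the values of each copy.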

How the data were processed

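Per the file headers, Cell Ranger 3.0.2 made the matrices that the authors deposited, which hold raw counts of UMIs per gene and cell barcode without normalization. The genome build is not given in a usable form in the sources used here, so no coordinate of the files is printed. Barcodes with under 200 genes or over 20% mitochondrial UMIs were removed (453 of 6161), as were 106 with the highest Scrublet scores, at 0.8% per 1000 barcodes, since its own threshold marked 17. Of the barcodes found in several libraries, 216 shallower copies were dropped, a choice made after seeing the data. The cells were scaled to 10000 counts and clustered in scanpy 1.11.5 (2000 variable genes without the members, 30 components, 15 neighbours, Leiden resolution 1), and unnamed clusters were split once more, which gave 31. A class name needed 3 markers and no lead of another class, and 10 cells for a sum. The study's own annotation was not used.

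CPM are UMIs per 1000000 UMIs of a class sum. Classes were tested with edgeR 4.0.16 (quasi-likelihood test, filterByExpr, TMM scaling, library as block, Benjamini-Hochberg over all genes tested), with limma 3.58.1 and DESeq2 1.42.0 as further tools under R 4.3.3. Classes of 1 library share its cells' handling, so the block pairs them. The classes of all contrasts were in 1 fit. P-values measure only how class differences varied over 3 libraries, with that spread shared over the classes of the fit. In data simulated for T cell-like against monocyte/macrophage-like cells (11743 genes), edgeR called 1.49%, 16.4% and 75.8% of genes changed by 1.5, 2 and 4 times, and 3 of 11543 unchanged ones. The changed genes were drawn from all genes above a low level, and most members are counted far more deeply. These rates are therefore not rates for the members. Depth bins had edges at 1000, 2000, 4000, 8000, 16000 and 32000 UMIs and at least 5 cells, averaged with equal weight over bins filled on both days.

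The members and lists were chosen with earlier results of these data known. Members were named by rule: in each contrast the 6 called members highest and the 6 lowest, for days the 5 highest and 5 lowest ratios in fibroblast-like cells (day 14 to 0) and monocyte/macrophage-like cells (day 14 to 3) among those with at least 100 UMIs, the 10 highest shares, the paralogues, and the 2 highest and 2 lowest called genes of each list. Other members named in the text were picked after their values had been seen. A few genes that the rule would name are not reported here.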

Additional observations from a re-analysis of the deposited data

Results flagged for a closer look

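The share of ribosomal protein UMIs on day 14 relative to day 3 lay on opposite sides of 1 in different classes. It was 0.682 in fibroblast-like cells and 0.823 in smooth muscle-like cells, but 1.18 in monocyte/macrophage-like cells. Each value comes from 1 library a day, and the difference between the classes was not tested. Within bins of depth the 3 ratios were 0.787, 0.536 and 1.28. Without either copy of shared barcodes they were 0.739, 0.979 and 1.18, so the smooth muscle-like one was then near 1. A cluster of smooth muscle-like cells with few UMIs and a share of 24.6% on day 3 held 32 of the 100 cells of that day and 5 of the 76 of day 14.

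Of the features that the rule for members left out, Rps27rt had 10869 UMIs over the 4 libraries and Rpl10-ps3 had 5154. With 3 counts as the limit that a count of 0 allows, both were well above it.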

How the results depend on the processing

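Ratios of the ribosomal share between days moved with several choices. In fibroblast-like cells the ratio of day 3 to day 0 (1.37 as reported) was 0.897 within bins of depth, which reverses it. Those bins leave out the 55 cells of day 3 above 32000 UMIs. A line with one slope for the class put the days at 12.7% and 12.8% at 5000 UMIs. The ratio was 1.20 as a mean over cells, 1.38 with each library clustered on its own, 1.29 without either copy of shared barcodes and 1.14 without the cluster led by Saa3. The ratio of day 7 to day 0 (0.905) was 0.463, 0.707, 0.881, 0.850 (0.8495) and 0.871 in the same order, 0.944 with at most 10% mitochondrial UMIs and 0.920 without mitochondrial UMIs in the total. That of day 14 to day 0 (0.936) was 0.714, 0.885, 0.929 and 0.954 under the first 4. In monocyte/macrophage-like cells the ratios of days 7 and 14 to day 3 (1.21 and 1.18) were 1.31 and 1.21 as means over cells, 1.247 and 1.235 with each library clustered on its own, 1.19 and 1.28 within bins of depth, 1.17 and 1.16 with at most 10% mitochondrial UMIs, 1.19 and 1.16 without mitochondrial UMIs, and 1.19 and 1.19 with all copies. In T cell-like cells they (1.15 and 1.09) were 1.14 and 1.05 as means over cells and 1.16 and 1.08 without mitochondrial UMIs. The first was 1.13 within bins of depth. The second was 0.943 with each library clustered on its own, which reverses it, 1.08 with at most 10% mitochondrial UMIs and 1.12 in cells with at least 2000 UMIs. The causes were not tested.

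The 20 members called higher in T cell-like than in monocyte/macrophage-like cells became 53 with total counts, 60 with the total of the other genes as library size, 33 with DESeq2, 7 without the filter on low counts, 10 with the sums of day 0, 4 with each library clustered on its own, 32 with all copies and 9 without either copy. The 2 lower ones became 1 with the total of the other genes. The 12 called lower in fibroblast-like than in monocyte/macrophage-like cells became 6 with total counts, with the total of the other genes and with DESeq2, 4 with day 0, and 5 with each library clustered on its own and without either copy. In dendritic-like cells 2 became higher with total counts, with the total of the other genes, with DESeq2 and with all copies, and 1 lower without the filter. The 41 lower in smooth muscle-like cells became 0 with each library clustered on its own and 6 with all copies, a setting that also clustered the cells anew. Leaving out 1 library in turn gave 2 to 14 and 1 to 2 in T cell-like cells, 0 to 41 in fibroblast-like cells and 0 to 30 in smooth muscle-like cells. Fewer libraries leave fewer degrees of freedom.

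Within the pool, leaving out 1 library in turn gave 2 to 5 higher and 3 to 10 lower shares in T cell-like cells (9 and 15 as reported), 2 to 7 and 1 to 4 in fibroblast-like cells (9 and 6), and 0 to 1 and 0 to 0 in smooth muscle-like cells (3 and 1). With each library clustered on its own the higher shares were 5 in T cell-like and 5 in fibroblast-like cells. In smooth muscle-like cells 5 and 2 were called with day 0, 0 and 0 with each library clustered on its own or with all copies, and 6 and 4 without either copy.

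The reported fits hold the library as a replicate block, since classes of 1 library were handled together. Without the replicate block 16 members were higher and 2 lower in T cell-like cells, 1 and 8 in fibroblast-like cells, none in dendritic-like cells and 35 lower in smooth muscle-like cells. Of 252 values of called named members under the alternatives, 203 kept direction and call, 49 kept the direction alone and none reversed. Among members not called, Rps27l in fibroblast-like against monocyte/macrophage-like cells (-0.07) changed sign to 0.041 with total counts, 0.019 with the total of the other genes, 0.075 with DESeq2, 0.18 with day 0 and 0.012 with each library clustered on its own, and in smooth muscle-like against fibroblast-like cells (-0.28) to 0.067 with all copies. Leaving out 1 library in turn gave the former -0.15 to 0.079. The share of Rpl13a on day 14 relative to day 0 in fibroblast-like cells (0.595) was 1.00 without either copy. The depth bins and mitochondrial settings were not run for single members. With 1 library a day, depth limits what counting error alone allows, not how far libraries of 1 day would differ.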

Other observations

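Cells without a class also differed in their ribosomal share. A cluster of 342 cells of day 7 led by Snhg9 and Dtx3, with a median of 747.5 UMIs per cell, had a share of 9.03%. A cluster led by Mt2 and Timp1 had 31.4% on day 3 (60 cells) and 22.6% on day 7 (26 cells). A cluster led by Hes1 and Mefv, with 15.7% and 12.9% of its UMIs from mitochondrial genes on days 3 and 7, had ribosomal shares of 8.14% and 8.05%.

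The 2 unnamed clusters with cell cycle genes such as Mki67 and Cdk1, which mark dividing cells, among their leading genes together had 17.5%, 18.1% and 17.2% on days 3, 7 and 14, with 59, 73 and 22 cells. Their medians of 31577, 26732 and 20382 UMIs per cell were above those of all kept cells. T cell-like clusters also differed among themselves on day 7, with 25.6% in the one led by Cd8b1 and Trac (213 cells), 31.9% in the one led by Ikzf2 and Xcl1 (94 cells) and 21.8% in the one led by Trdc and Cxcr6 (57 cells). Dendritic-like cells had 21.3% in the cluster led by Cd209a and Mgl2 (285 cells), 18.3% in the one led by Ccl22 and Fscn1 (58 cells) and 11.2% in the one led by Ciita and Wdfy4 (31 cells), whose mitochondrial share was 12.0%.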
